A study of Macaca mulatta with 2 samples.

Results

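The small leucine-rich proteoglycans are secreted matrix proteins, and 6 of their genes were followed here across the back of the macaque eye: decorin (DCN), lumican (LUM), fibromodulin (FMOD), PRELP, osteoglycin (OGN) and chondroadherin (CHAD). They were chosen by symbol, with earlier results of these data known, and all 6 were found once each among the 26533 genes and transgenes of the reference. Spatial transcriptomes came from 2 wild-type male rhesus macaques, with 1 section of the posterior eyecup per animal. NHP1, aged 5 years, had received AAV2-CAG-hRPE65, and NHP2, aged 6 years, had received AAV8-GRK1-hRPGR and AAV8-GRK1-mScarlet, by subretinal injection in both eyes. Both animals also received subtenon triamcinolone at surgery, so neither section is from an eye without surgery, vector or steroid. The sections were cut from full-thickness punches of retina, choroid and sclera, 4 mm wide, which were taken at 12 weeks from uninjected areas of the right eyes.

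The proteins share a core of leucine-rich repeats that binds collagen fibrils and limits how thick the fibrils grow and how closely they pack. In the sclera, a tissue of dense type I collagen, they are among the main proteoglycans made by the resident fibroblasts. Decorin, of class I of the family, usually carries 1 chain of chondroitin or dermatan sulphate. Lumican, fibromodulin and PRELP belong to class II. Keratan sulphate is the usual chain of lumican and fibromodulin, while PRELP binds basement membrane heparan sulphate through its basic end. Osteoglycin, also called mimecan, is of class III, and chondroadherin, which binds cells through integrins, is placed in class IV.

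On the RefSeq annotation of Mmul_10, most of the members lie beside relatives. LUM (chromosome 11, 90873214 to 90880995, 3 exons) lies 33.8 kb from DCN (chromosome 11, 90914795 to 90952424, 8 exons), both on the minus strand and on the same side of KERA. FMOD (chromosome 1, 60847447 to 60858228, minus strand, 4 exons) and PRELP (chromosome 1, 60984054 to 60999622, plus strand, 3 exons) are 126 kb apart, and OPTC follows PRELP after 5.86 kb. OGN (chromosome 15, 107479658 to 107500435, minus strand, 7 exons) stands next to OMD, ASPN and ECM2. CHAD (chromosome 16, 46318187 to 46322592, plus strand, 4 exons) was the only member for which no other family gene was placed on the same chromosome.

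Because the members were all higher in the sclera, the 250 bases before the annotated start of 3 of them are shown, each on the strand of its gene and from Mmul_10. They are those of DCN, the most abundant member, PRELP, whose share of the members' UMIs was larger in the retina, and CHAD, which was at 0 in 1 choroid. Capitals mark matches on either strand to the motif TATAAA, to the motif CCAAT and to the motif GGGCGG, which do not overlap here.
DCN, chr11:90952425-90952674, minus strand: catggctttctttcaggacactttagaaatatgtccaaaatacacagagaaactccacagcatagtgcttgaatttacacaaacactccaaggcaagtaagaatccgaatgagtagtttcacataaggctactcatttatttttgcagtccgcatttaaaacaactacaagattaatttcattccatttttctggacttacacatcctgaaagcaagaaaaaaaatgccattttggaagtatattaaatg
PRELP, chr1:60983804-60984053, plus strand: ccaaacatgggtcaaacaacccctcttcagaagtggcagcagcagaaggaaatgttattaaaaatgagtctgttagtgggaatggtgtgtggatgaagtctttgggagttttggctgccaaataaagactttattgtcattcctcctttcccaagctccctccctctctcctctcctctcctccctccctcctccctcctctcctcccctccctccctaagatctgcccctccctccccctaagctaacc
CHAD, chr16:46317937-46318186, plus strand: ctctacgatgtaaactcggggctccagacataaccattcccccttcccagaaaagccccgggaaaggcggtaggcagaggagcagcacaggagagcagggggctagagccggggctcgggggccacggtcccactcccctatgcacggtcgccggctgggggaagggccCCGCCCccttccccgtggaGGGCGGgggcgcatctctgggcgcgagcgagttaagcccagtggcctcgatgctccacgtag
The stretch before CHAD was 68% G and C and held GGGCGG 2 times, once on each strand. Those before DCN and PRELP were 34% and 51.2% G and C and held none of the 3 motifs. Among the same stretches of 20787 protein-coding genes on the assembled chromosomes, the median G and C content was 57.2%, and 43.7% held GGGCGG, 31% CCAAT and 9.85% TATAAA. Of the other members, FMOD had 1 CCAAT, OGN 1 TATAAA and LUM no match.

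Each Visium spot, 55 µm wide and 100 µm from its neighbours, tags polyadenylated RNA from the tissue above it with its own barcode and a unique molecular identifier (UMI), so that 1 UMI stands for 1 captured molecule and gene length is not divided out. A spot can hold several cells. NHP1 had 534 spots over tissue with 1484784 UMIs, at a median of 1473.5 per spot. NHP2 had 470 with 805726 UMIs, at a median of 370.5, and 164 of its spots had fewer than 200 UMIs, against 25 in NHP1. Levels are UMIs of a gene per 10000 UMIs of all genes in a region. Intervals are exact 95% intervals that cover counting error only, since 1 section per animal allows no test. Fewer cells of a type and less RNA per cell cannot be told apart in such sums.

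Regions were clusters of tissue spots made without any gene of the family and named from other markers. In NHP1, 119 spots formed the sclera region, led by PTGES, ANGPTL7 and MYOC, 71 the choroid, 67 a mixed region of photoreceptors and retinal pigment epithelium (RPE), and 277 the neural retina (104 photoreceptor, 173 inner retina). One of the NHP1 inner retina clusters, of 86 spots, was led by HBE1, DPP10 and HBA and had a median of 585 UMIs. In NHP2, 211 spots formed the sclera, 48 the choroid, 38 the photoreceptor and RPE region and 34 the neural retina, all of it inner retina, while 139 shallow spots stayed unnamed. The sclera regions were named by 20 sclera markers, none of them a member, so the sums of these markers do not check the label. They were 337 UMIs per 10000 in the sclera of NHP1 and 558 in that of NHP2, against 7.26 and 7.13 in the neural retina. The NHP1 sclera also held 73.5 photoreceptor, 48.3 inner retina and 55.1 RPE marker UMIs per 10000. That of NHP2 held 18.9, 31.5 and 40.4. The NHP2 choroid was less clearly named, with 7 choroid and 7 sclera markers raised. One of the 2 NHP2 sclera clusters, of 105 spots, had 12 sclera and 11 choroid markers raised, against 12 and 4 in the NHP1 sclera. By sum, that cluster had 584 sclera and 53.6 choroid marker UMIs per 10000. Skeletal muscle markers came to 1 UMI in either sclera, and the 3 fat markers were at 0.

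By level per 10000 UMIs, the members as a sum were highest in the sclera. Together they had 125 UMIs per 10000 (95% interval 119 to 133) in the sclera of NHP1 and 227 (220 to 234) in that of NHP2. In the neural retina they had 2.95 (2.65 to 3.28) and 4.35 (3.74 to 5.02), so the sclera was higher 42.5-fold (37.7 to 48.0) in NHP1 and 52.2-fold (45.1 to 60.9) in NHP2. The NHP1 sclera lay in 2 pieces of tissue, and the ratio was 51.6 (41.5 to 64.8) within the first and 20.2 (16.9 to 24.2) within the second. Sclera markers were at 515 and 147 per 10000 in these sclera spots, and photoreceptor markers at 38.6 and 111. In the second piece the neural retina had 121 of the photoreceptor markers and the choroid 112 of the sclera markers. The sclera label of its 38 spots was therefore weak. The sclera regions held 65.9% of the members' tissue UMIs in NHP1 and 89.5% in NHP2, but 6.71% and 20.7% of the UMIs of all genes. Per spot the ratios shrank to 8.34 and 3.28, because retina spots had far more UMIs of all kinds than sclera spots. For single members they ran per spot from 1.95 (LUM) to 16.3 (DCN) in NHP1. In NHP2 they ran from 1.52 (PRELP) to 5.46 (CHAD), and the interval of OGN (0.483 to 7.99) spanned 1.

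**Figure D1:**
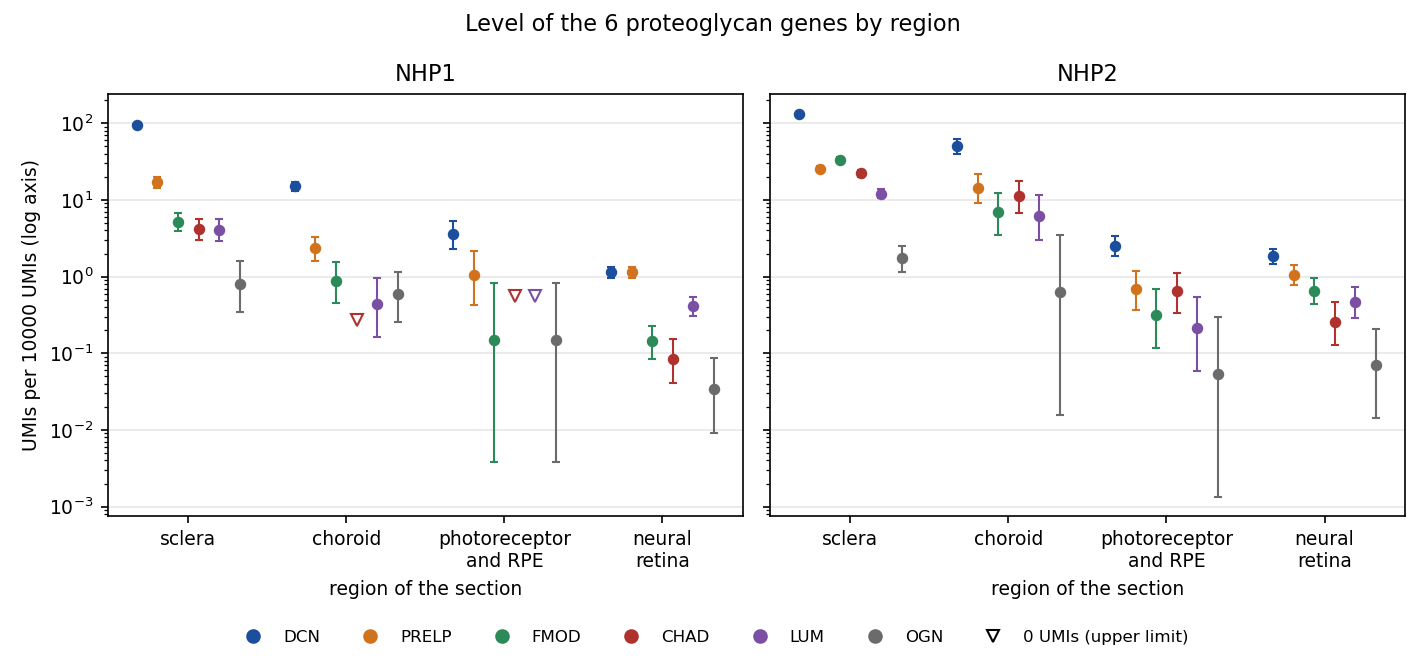
Level of each member (UMIs per 10000 UMIs, log axis) in 4 regions of the NHP1 and NHP2 sections; points are sums over the region, bars exact 95% Poisson intervals, and open triangles the upper limit where no UMI was counted. DCN is highest in every region but the neural retina of NHP1, where its level of 1.13 lies beside the 1.14 of PRELP.

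Among genes with at least 20 UMIs over both regions, 2.67% in NHP1 and 6.49% in NHP2 were at least 4-fold higher in sclera than in neural retina. All 5 members with that many UMIs in NHP1 and all 6 in NHP2 passed this fold. OGN fell below the minimum in NHP1. In NHP2 it met the minimum mainly through the sclera, with 29 UMIs there and 3 in the neural retina. The same held for FMOD (52 and 17) and CHAD (42 and 10) in NHP1 and for CHAD in NHP2 (373 and 11). The members were chosen with earlier results of these data known, so these counts are a description and not a test. The median ratio was 36.3 over the members tested in NHP1 and 38.5 in NHP2, while 0.782 and 0.754 were the medians of all genes tested.

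Decorin led in both animals. It had 94.1 UMIs per 10000 (88.2 to 100) in the NHP1 sclera, 15.1 (13.1 to 17.4) in the choroid and 1.13 (0.950 to 1.34) in the neural retina. NHP2 gave 132 (127 to 138), 50.2 (39.8 to 62.4) and 1.85 (1.46 to 2.30) in the same order. The sclera was thus 83.0-fold (69.2 to 100) above the neural retina in NHP1, rank 7 of 7368 genes by this ratio, and 71.5-fold (57.1 to 90.7) in NHP2, rank 24 of 5442. Counts of DCN reached 55 UMIs in a single spot of the NHP1 sclera and 81 in the NHP2 sclera, with medians of 6 and 7, and 95.8% and 90.0% of sclera spots held at least 1. Decorin was also the gene with the highest deposited Moran's I of all 13804 in NHP1 (0.752), a score of how alike neighbouring spots are, and it was ninth of 12542 in NHP2 (0.414).

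PRELP was the second member in NHP1 and the third in NHP2. Its level was 17 (14.5 to 19.7) in the NHP1 sclera and 25.5 (23.1 to 28.0) in the NHP2 sclera, with 1.14 (0.957 to 1.35) and 1.05 (0.767 to 1.41) in the neural retina. The ratios of 14.8 (11.8 to 18.8) and 24.2 (17.8 to 33.7) were well under those of DCN, and the intervals of the 2 genes did not overlap in either animal. Moran's I was 0.494 (rank 14) in NHP1 and 0.238 (rank 23) in NHP2.

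FMOD and CHAD were rarer in NHP1 and prominent in NHP2. Fibromodulin had 5.22 (3.90 to 6.84) in the NHP1 sclera and 33.4 (30.7 to 36.3) in the NHP2 sclera, 36.3-fold (20.6 to 66.9) and 51.1-fold (35.0 to 77.6) above the neural retina. Chondroadherin, named for its place in cartilage, had 4.21 (3.04 to 5.69) and 22.3 (20.1 to 24.7), 49.8-fold (24.6 to 111) and 86.9-fold (48.0 to 176) above it. In NHP2 their sclera levels followed DCN in the order FMOD, PRELP, CHAD, with FMOD above PRELP beyond counting error and CHAD and PRELP overlapping.

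Lumican, a main keratan sulphate proteoglycan of the cornea, stood at 4.11 (2.95 to 5.58) in the NHP1 sclera and 12.1 (10.5 to 13.9) in the NHP2 sclera. Its ratios to the neural retina were 9.92 (6.39 to 15.3) and 25.9 (16.3 to 43.3). In NHP1, LUM, CHAD and FMOD had overlapping intervals in the sclera, so their order there was not settled. Osteoglycin was the lowest member in both scleras, at 0.802 (0.346 to 1.58) on 8 UMIs and 1.74 (1.16 to 2.5) on 29 UMIs. Its Moran's I was 0.0299 and −0.00553, ranks 2643 and 10374.

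**Figure D2:**
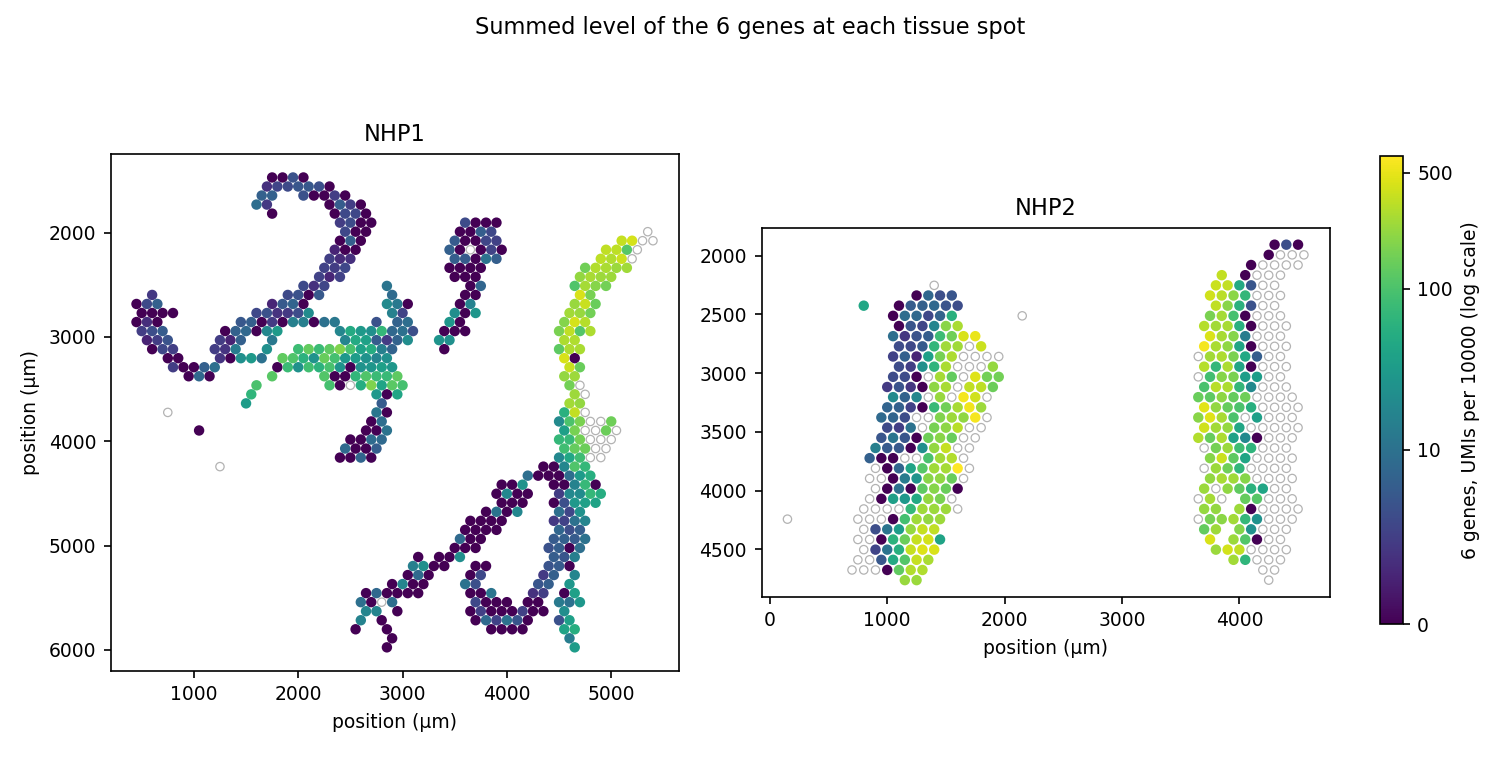
Tissue spots of both sections at their position on the slide (µm), coloured by the summed level of the 6 members (UMIs per 10000, log colour scale) for spots with at least 200 UMIs; open circles are spots with fewer. In NHP1 the highest values run along the strip at the right, and in NHP2 they run along one side of each of the 2 strips.

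Whether a spot held any member depended on depth as well as on place. At least 1 UMI of a member was found in 97.5% (92.8 to 99.5, Clopper-Pearson) of sclera spots and 54.9% (48.8 to 60.8) of neural retina spots in NHP1, without regard to depth. In NHP2 the shares were 93.4% (89.1 to 96.3) and 94.1% (80.3 to 99.3), which did not separate the 2 tissues. With each spot thinned to 200 UMIs the shares became 85.2% of 108 sclera spots and 7.92% of 265 neural retina spots in NHP1, and 89.8% of 186 and 2.94% of 34 in NHP2. Thinning left out 11 and 12 shallower spots of these regions in NHP1 and 25 and 0 in NHP2.

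The choroid lay between sclera and retina by level. Its 6 members summed to 19.4 UMIs per 10000 (17.1 to 21.9) in NHP1 and 89.7 (75.6 to 106) in NHP2, on 264 and 143 UMIs. The sclera was 6.46-fold (5.65 to 7.40) above the choroid in NHP1 and 2.53-fold (2.14 to 3.01) in NHP2. Within the first NHP1 piece the ratio was 9.38 (7.86 to 11.3). Within the second, where the sclera label was weak, it was 3.02 (2.43 to 3.77), with 2.89 (2.27 to 3.70) for DCN and 2.72 (1.39 to 5.60) for PRELP. At least a 4-fold excess of sclera over choroid was seen for 5 of 5 members tested over all NHP1 spots, where 1.28% of genes passed. In NHP2 it was seen for 1 of 6, FMOD, where 8.47% passed. LUM, FMOD and CHAD met the minimum of 20 UMIs in NHP1 only through the sclera, with 41, 52 and 42 UMIs there and 6, 12 and 0 in the choroid. FMOD in NHP2 did so too, with 558 and 11. These counts are therefore a description and not a test. The sclera markers were likewise higher in the NHP2 choroid, at 234 against 116 per 10000. RPE markers, in contrast, were at 205 per 10000 in the NHP1 choroid and 85.9 in that of NHP2, beside 109 and 135 of the choroid markers, and the part of these other tissues in the members' level was not tested. The NHP2 choroid also depended on the clustering: at a Leiden resolution of 0.5 its members came to 51.2 per 10000 and the sclera was 4.28-fold (3.34 to 5.57) above it, and no NHP2 choroid was named when the family was kept in the clustering.

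Chondroadherin differed between the 2 choroid regions. It had 0 UMIs in 136006 in the choroid of NHP1, which allows up to 0.221 per 10000, so the NHP1 sclera was at least 19.1-fold higher by a limit of 3 UMIs over the region (the 95% interval of the ratio starts at 14.9). In the NHP2 choroid it had 18 UMIs, or 11.3 per 10000 (6.69 to 17.8). That region also held 234 sclera and 135 choroid marker UMIs per 10000. CHAD took 12.6% (7.63 to 19.2) of the members' UMIs in it, which overlapped the 9.84% (8.91 to 10.8) of the NHP2 sclera. The part of sclera in the CHAD count of the NHP2 choroid was not tested. OGN had 8 UMIs in the NHP1 choroid, or 0.588 (0.254 to 1.16), and its ratio of sclera to choroid, 1.36 (0.446 to 4.17), had an interval that spanned 1.

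Choroid stood above neural retina per 10000 UMIs, 6.58-fold (5.58 to 7.74) in NHP1 and 20.6-fold (16.5 to 25.8) in NHP2. At least 4-fold were 2 of 4 members tested in NHP1, DCN and FMOD, beside 4.93% of all genes, and 5 of 5 in NHP2 beside 5.14%. The ratio of LUM in NHP1 was 1.06, with an interval (0.373 to 2.49) that spanned 1. Per spot the NHP2 direction turned, to 0.545 (0.435 to 0.681), as its choroid spots had a median of 296.5 UMIs and its retina spots 8098.5. In the photoreceptor and RPE region the members summed to 4.94 (3.40 to 6.93) and 4.43 (3.53 to 5.50). LUM and CHAD were at 0 there in NHP1.

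The makeup of the proteoglycan UMIs changed from sclera to retina. DCN took 75.0% (72.5 to 77.4) of the members' 1250 UMIs in the NHP1 sclera and 38.4% (33.3 to 43.7) of 349 in the neural retina. PRELP rose from 13.5% (11.7 to 15.5) to 38.7% (33.5 to 44.0), with 135 UMIs against 134 of DCN. In NHP2, DCN went from 58.1% (56.5 to 59.7) to 42.5% (35.3 to 49.9) and PRELP from 11.2% (10.2 to 12.3) to 24.2% (18.2 to 31.0). LUM also took more of the total in the retina. It went from 3.28% (2.36 to 4.42) in the NHP1 sclera to 14.0% (10.6 to 18.1), and from 5.33% (4.64 to 6.09) in the NHP2 sclera to 10.8% (6.69 to 16.1). These intervals of sclera and neural retina did not overlap in either animal for DCN, PRELP and LUM.

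**Figure D3:**
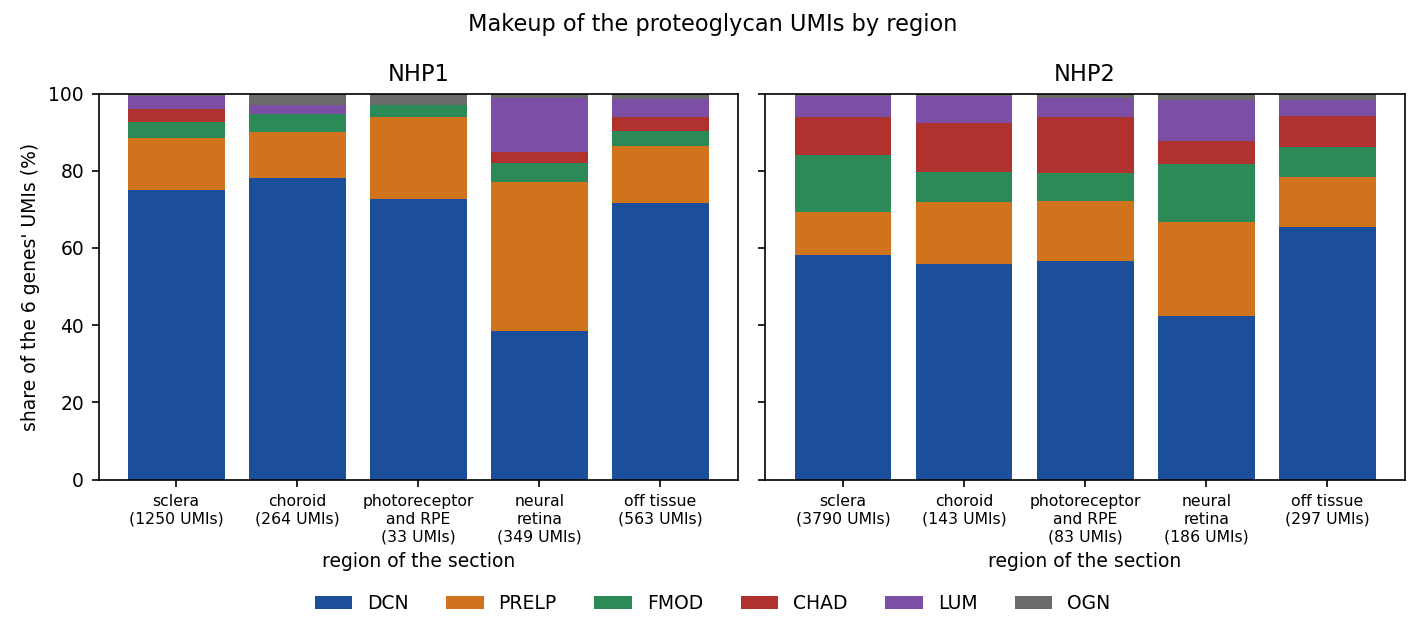
Share of the 6 members' UMIs (%) taken by each, by region and for spots off tissue, in NHP1 and NHP2; the number under each bar is the members' UMIs in it. PRELP and LUM take more of the total in the neural retina than in the sclera, while the off-tissue bar lies nearer to that of the sclera.

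Spots off tissue held a mix nearer to that of the sclera. DCN made up 71.8% (67.8 to 75.4) and PRELP 14.7% (11.9 to 17.9) of their 563 member UMIs in NHP1, and 65.3% (59.6 to 70.7) and 13.1% (9.51 to 17.5) of 297 in NHP2. Within the NHP1 retina the mix varied with the cluster. PRELP took 44.0% (34.1 to 54.3) in the photoreceptor region and 47.6% (39.1 to 56.1) in the larger of the deep inner retina clusters, led by SST, but 13.6% (6.04 to 25.0) in the shallow cluster led by HBE1, DPP10 and HBA.

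DCN was higher in the NHP1 retina spots near the sclera than in those far from it. Retina spots within 300 µm of a sclera spot had 5.02 DCN UMIs per 10000 (3.74 to 6.60), and those beyond 600 µm had 0.747 (0.568 to 0.963). PRELP was at 1.48 (0.827 to 2.44) and 0.937 (0.735 to 1.18) in the same bins, and LUM at 0.197 (0.0239 to 0.712) and 0.342 (0.225 to 0.497), so neither of these moved beyond counting error. The shallow NHP1 retina cluster of 86 spots had 6.47 DCN UMIs per 10000 (4.64 to 8.78) and 21.0 of the sclera markers. The cluster led by SST had 0.747 (0.526 to 1.03) and 6.83. The part of the shallow cluster in the near bin was not tested. Against retina spots beyond 600 µm alone, the sclera was 126-fold (96.8 to 167) higher for DCN and 18.1-fold (13.7 to 24.1) for PRELP. The NHP2 section had 4 retina spots farther than 300 µm from sclera, too few to repeat this.

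Within the sclera regions, the level was lowest in the spots nearest to the choroid. NHP1 sclera spots within 300 µm of a choroid spot had 65.5 member UMIs per 10000 (59.3 to 72.3, 53 spots), those at 300 to 600 µm 118 (98.9 to 141, 20 spots) and those beyond 600 µm 261 (242 to 281, 46 spots). All of DCN, PRELP, FMOD and CHAD were highest in the last bin, where FMOD had 13.8 (9.74 to 18.9) against 1.47 (0.673 to 2.79) in the first and CHAD 10.9 (7.33 to 15.5) against 1.14 (0.460 to 2.36). The sclera markers rose with them, from 194 to 684 per 10000, and photoreceptor markers fell from 103 to 9.78, and their part in the rise was not tested. The NHP1 tissue was folded, so that distance there is not depth along a straight line. Tissue pieces with different sclera levels (191 and 55.7 per 10000) were also pooled in these bins.

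In NHP2, spots within 100 µm of the choroid had 158 (147 to 169, 74 spots), those at 100 to 200 µm 253 (241 to 266, 63 spots) and those beyond 200 µm 266 (252 to 280, 73 spots). The intervals beyond 100 µm overlapped, so no further rise was shown there. The members did not all follow the same course. FMOD went from 18.7 (15.2 to 22.8) to 43.7 (38.7 to 49.1) and then 35.8 (30.8 to 41.3), while LUM stood at 9.06 (6.66 to 12.0) and 10.8 (8.44 to 13.7) and was highest beyond 200 µm at 16.8 (13.4 to 20.8). Sclera markers were 403, 652 and 600 per 10000 in these bins. Counted outward from the neural retina, other tissue spots of NHP2 had 8.51 (7.21 to 9.99) member UMIs per 10000 within 200 µm and 218 (207 to 230) at 200 to 400 µm. Those of NHP1 had 31.8 (29.5 to 34.1) and 64.4 (57.2 to 72.2) in the same bins, then 143 (123 to 166) at 400 to 600 µm and 261 (229 to 297) at 600 to 800 µm.

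**Figure D4:**
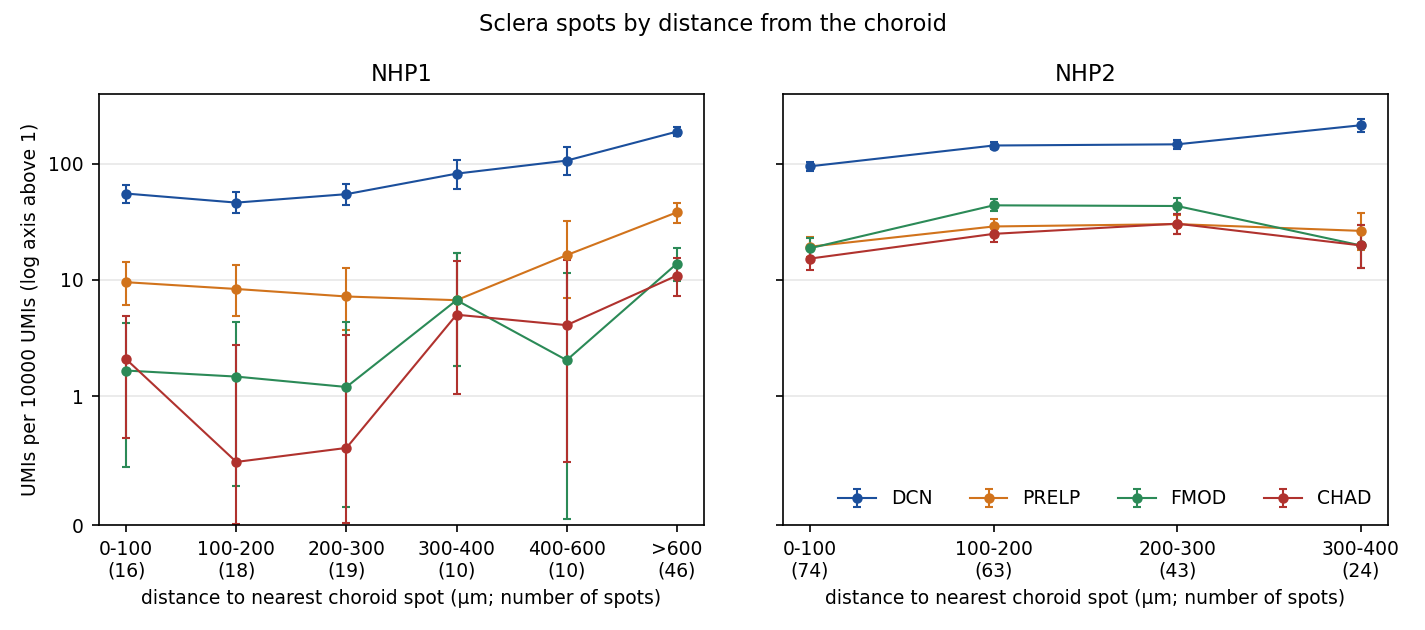
Level of DCN, PRELP, FMOD and CHAD (UMIs per 10000, log axis above 1) in sclera spots by distance to the nearest choroid spot (µm), with exact 95% Poisson intervals and the number of spots in brackets; bins with under 10 spots are left out. All 4 are highest beyond 600 µm in NHP1, and in NHP2 FMOD is highest between 100 and 300 µm.

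Per 10000 UMIs, the 2 sclera clusters of NHP2 also split FMOD from the rest. The first, of 105 spots led by MBP, MIA-RAB4B, MDFI and PCOLCE, had a median of 978 UMIs per spot. The second, of 106 spots led by CLEC3B and ANGPTL2, had a median of 363.5. FMOD was 2.51-fold (1.96 to 3.26) higher per 10000 in the first than in the second. DCN (0.753, 0.689 to 0.824) and LUM (0.588, 0.440 to 0.790) were lower in the first, and PRELP (0.820) and CHAD (0.915) had intervals that reached 1. Of all genes, 9.01% were at least 2-fold higher. Schwann cell and myelin markers were 3.43-fold (1.84 to 7.10) higher in the same cluster and choroid markers 1.74-fold. Counted per spot, the direction of DCN and LUM turned, to 2.01 (1.84 to 2.20) and 1.57 (1.18 to 2.11). PRELP came to 2.19, CHAD to 2.45 and FMOD to 6.71 (5.24 to 8.70) per spot. FMOD reached 41 UMIs in a single spot of the NHP2 sclera, against 5 in NHP1.

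The animals differed most in FMOD and CHAD. In NHP2 over NHP1, sclera against sclera, FMOD was 6.41-fold (4.82 to 8.69) and CHAD 5.30-fold (3.85 to 7.48) higher, ranks 27 and 43 of 2594 genes, of which 2.62% were at least 4-fold higher. LUM was 2.94-fold (2.09 to 4.22) higher, PRELP 1.5-fold (1.25 to 1.81), DCN 1.40-fold (1.30 to 1.52), and OGN, at 2.16 (0.966 to 5.48), had an interval that reached 1. The median over all genes was 1.06. Animal, vector, library and makeup of the region differ together here and cannot be told apart.

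The regions were not alike in makeup. Sclera markers were 1.65-fold (1.59 to 1.72) higher in the NHP2 sclera and photoreceptor markers 0.257-fold (0.225 to 0.294) as high. Counted per UMI of the sclera markers, DCN came to 0.848 (0.785 to 0.916) and PRELP to 0.908 (0.758 to 1.09), so DCN fell below 1 and the interval of PRELP spanned it, while FMOD was 3.87-fold (2.91 to 5.25), CHAD 3.21-fold (2.33 to 4.52) and LUM 1.78-fold (1.27 to 2.55) higher. For the 6 members together, the 2 tissue pieces of the NHP1 sclera also differed: 81 spots in the first had 191 member UMIs per 10000 (179 to 203) and 38 in the second had 55.7 (49.2 to 62.7), with 515 and 147 of the sclera markers. Photoreceptor markers were at 38.6 and 111 in the same spots. The pieces of NHP2 had 220 (208 to 232) and 231 (222 to 240).

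Set against the first NHP1 piece alone, the NHP2 sclera was 3.67-fold (2.72 to 5.05) higher in FMOD and 3.39-fold (2.38 to 4.97) in CHAD, and at 0.937 (0.861 to 1.02) in DCN. As a share of the members' UMIs, which needs no other denominator, FMOD took 4.79% (3.54 to 6.31) and 1.87% (0.608 to 4.30) in the NHP1 pieces against 14.3% (12.4 to 16.4) and 14.9% (13.6 to 16.4) in the NHP2 pieces. CHAD took 3.46% (2.41 to 4.80) and 2.99% (1.30 to 5.80) against 12.4% (10.7 to 14.4) and 8.52% (7.46 to 9.68). For both genes the pieces of one animal therefore lay apart from those of the other, but pieces of 1 section are not replicates. The FMOD share also varied between the NHP2 sclera clusters. It was 18.3% (16.8 to 19.8) in the cluster led by MBP, MIA-RAB4B, MDFI and PCOLCE. In the cluster led by CLEC3B and ANGPTL2 it was 6.41%. That interval started at 5.06% and overlapped the one of the first NHP1 piece. CHAD took 9.95% (8.84 to 11.2) and 9.58% (7.93 to 11.4) in these clusters, above both NHP1 pieces.

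**Figure D5:**
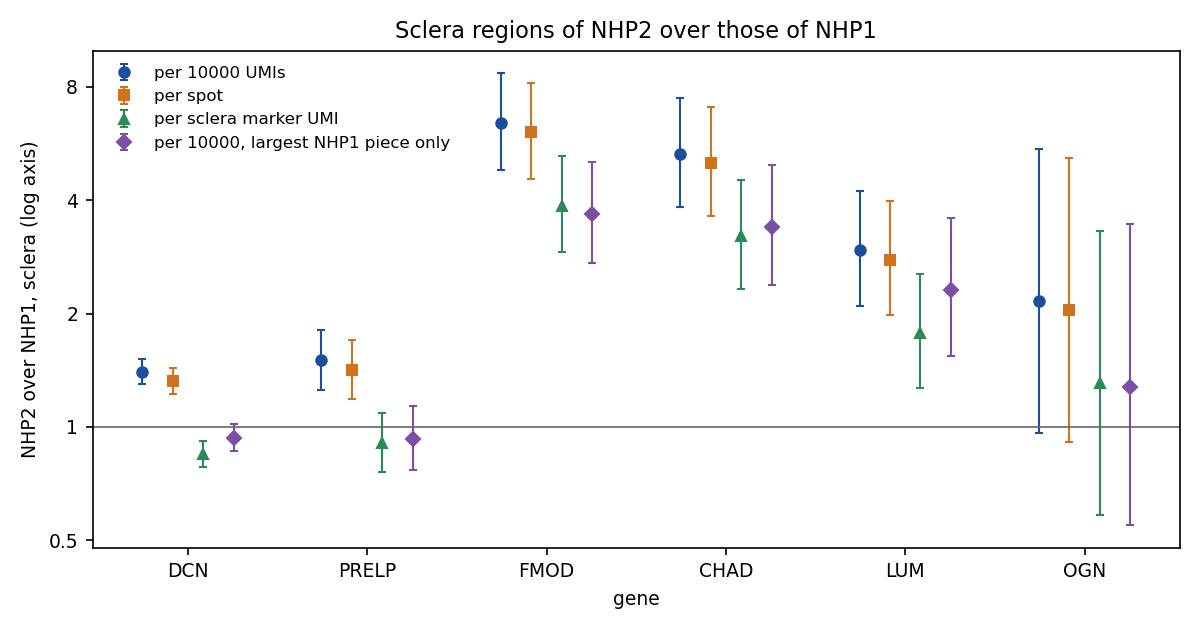
Ratio of NHP2 to NHP1 in the sclera (log axis) for each member, with exact 95% conditional binomial intervals, by 4 ways of counting: per 10000 UMIs, per spot, per UMI of the sclera markers, and per 10000 against the largest tissue piece of NHP1. FMOD, CHAD and LUM lie above 1 in all 4, and DCN and PRELP fall on either side of it.

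The rest of the family was sparse apart from BGN and TSKU. Biglycan (BGN), a class I relative of decorin, had 188 UMIs in NHP1 tissue and 407 in NHP2, and tsukushi (TSKU) 118 and 155. Sclera over neural retina was 19.0-fold (13.3 to 27.3) and 51.3-fold (32.0 to 87.5) for BGN, and 11.2-fold (6.86 to 18.3) and 19.5-fold (11.7 to 34.4) for TSKU. CHADL had 20 and 13 UMIs, ECM2 9 and 21, PODN 5 and 13, and OMD 2 and 2. Keratocan (KERA), which lies beside LUM and is known from the cornea, had 0 and 5 UMIs, with 4 of the 5 in the sclera. Opticin (OPTC), beside PRELP and known from the vitreous, had 0 and 1, and ASPN, EPYC, NYX and PODNL1 had 0 in both, which allows up to 0.0202 per 10000 in NHP1 and 0.0372 in NHP2.

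Other matrix genes are given beside the members as values only, since they took part in the clustering and COL1A1, COL1A2 and PCOLCE were sclera markers. COL1A1 and COL1A2, the chains of type I collagen, were 30.8-fold (14.4 to 71.7) and 26.4-fold (16.5 to 43.2) higher in the sclera than in the neural retina of NHP1, and 84.4-fold (45.3 to 178) and 95.6-fold (57.4 to 172) in NHP2. They were 2 of 8 fibrillar collagens with enough UMIs in either animal, and DCN had 938 UMIs in the NHP1 sclera against 26 of COL1A1 and 60 of COL1A2. Of the genes that build chondroitin and dermatan sulphate chains, 1 of 4 tested in NHP1 and 2 of 3 in NHP2 were at least 4-fold higher. The shares of all genes tested were 2.67% and 6.49%. CHPF, a chondroitin polymerising factor, was 4.77-fold (3.26 to 6.85) and 10.9-fold (7.37 to 16.6) higher. Among genes for keratan sulphate, 0 of 2 tested in NHP1 passed and none reached 20 UMIs in NHP2.

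Of 9 listed matrix proteases and their inhibitors, 3 of 4 tested in NHP1 and 5 of 5 in NHP2 passed, beside 2.67% and 6.49% of all genes. MMP2, a gelatinase, was 19.0-fold (13.2 to 27.6) and 31.2-fold (20.4 to 50.1) higher in the sclera, and TIMP1, a metalloproteinase inhibitor, was 19.5-fold (12.5 to 30.9) and 31.5-fold (19.5 to 54.1). In collagen processing, 1 of 4 and 3 of 4 passed, among them the collagen chaperone SERPINH1 in NHP2 (17.7, 9.63 to 35.7) but not in NHP1 (3.44, 1.44 to 7.41). Of the large proteoglycans only perlecan (HSPG2) could be tested, at 10.8-fold (4.10 to 28.0) and 36.4-fold (14.9 to 116). At least 4-fold lower in the sclera were 9.26% of all genes in NHP1 and 11.7% in NHP2, and no gene of these lists.

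The genes whose levels across spots were most like the sum of the members were ANGPTL7, GSN, IGFBP6, MYOC, AEBP1, PI16, MGP and FBLN1, ranked by the lower of the Pearson r in the 2 sections. The r of ANGPTL7 was 0.719 over 509 spots of NHP1 and 0.731 over 306 spots of NHP2 with at least 200 UMIs, among 3396 genes compared. Of the 8, ANGPTL7, IGFBP6, MYOC, MGP and FBLN1 were sclera markers. These spots share sections and depth, so the values are a description. DCN alone gave 0.939 and 0.917 with the sum it belongs to. Over 108 and 186 sclera spots, DCN and PRELP had an r of 0.361 and 0.396, FMOD and CHAD 0.333 and 0.322, and LUM and PRELP 0.0709 and 0.308, in counts too sparse to read an order from.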

How the data were processed

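Spatial transcriptomes of 2 sections were used, 1 each of NHP1 and NHP2. The deposited files hold unnormalized UMI counts for every spot, which the authors made with Space Ranger 2.1.0 against Mmul_10 with transgene sequences added, and Moran's I, a score that Space Ranger computed per gene. The deposited p-values and average counts were not used. The labels call the libraries fresh frozen but also mention fixation in PFA.

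The members, gene lists and markers were chosen with earlier results of these data known. Tissue spots were clustered per section without 18 family genes with Python 3.11.15, numpy 2.4.6, scipy 1.17.1, scanpy 1.11.5 and leidenalg 0.10.2 (10000 UMIs per spot, log1p, 2000 variable genes, 20 principal components, 15 neighbours, Leiden resolution 1, seed 0). A region took the class with most raised markers (at least 3 markers, each with 3 UMIs and a fold of 1.5), by a rule set after the regions were seen. Spots within 2.1 spacings formed a tissue piece. Folds across genes needed 20 UMIs over both regions, and 3 UMIs were taken as the upper limit of a 0. Intervals were Poisson for levels, Clopper-Pearson for shares and conditional binomial for ratios, and the ratio step was tested on simulated data. Named genes were the 6 members, 12 relatives, the listed matrix genes and the 8 genes most like the members. Alternatives covered clustering, resolution, depth, spot classes, denominators, pieces, single spots and thinning. Others were added after seeing the data, namely sclera markers as the denominator, the largest and the second NHP1 piece, and retina far from sclera. Gene positions and promoters came from the RefSeq annotation of Mmul_10, while the counts used Ensembl gene IDs.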

Additional observations from a re-analysis of the deposited data

Results flagged for a closer look

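The members had UMIs in spots off tissue, a signal in spots that no comparison between regions used. NHP1 had 563 such UMIs in 4284 spots, or 10.8 per 10000 (9.89 to 11.7), and NHP2 297 in 4027 spots, or 38.6 (34.4 to 43.3). Off-tissue spots within 300 µm of a sclera spot had 66.4 (59.6 to 73.7) and 73.8 (64.0 to 84.8) per 10000, those near other tissue 3.75 (3.16 to 4.43) and 7.82 (5.06 to 11.5), and those farther from tissue 6.95 (5.41 to 8.79) and 40.1 (31.3 to 50.6). All 3 classes were above the neural retina regions, which had 2.95 (2.65 to 3.28) and 4.35 (3.74 to 5.02), although the intervals for spots near other tissue in NHP1 and for the neural retina there overlapped. The part of off-tissue RNA in the members' retina counts was not tested.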

How the results depend on the processing

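Intervals cover counting error only, and 1 section per animal leaves the spread between animals unmeasured. OGN was limited by depth throughout. Every ratio of sclera to neural retina and of sclera to choroid for the 6 members together kept its direction under each alternative that gave a value. Of 552 values of single genes or distance bins under an alternative, 462 moved by less than counting error, 81 moved further and 9 fell on the other side of 1, and the cause was not tested.

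Counted per spot, sclera over neural retina was 8.34 in NHP1 and 3.28 in NHP2, sclera over choroid 2.82 and 6.03, and choroid over neural retina 2.95 and 0.545, the last a reversal. Per spot, choroid over neural retina also fell below 1 for PRELP in NHP1 (0.925, 0.608 to 1.37) and for DCN (0.717), LUM (0.354), FMOD (0.278) and PRELP (0.362) in NHP2. LUM in NHP1 (from 1.06 to 0.478) and OGN in NHP2 (from 8.95 to 0.236) did so too, from ratios whose intervals already spanned 1. For sclera over choroid, OGN in NHP1 went from 1.36 to 0.597 (0.195 to 1.82) per spot, and both intervals spanned 1. With the largest piece alone, NHP1 had 191 in sclera and 3.69 in neural retina, and ratios of 51.6 (sclera over neural retina), 5.50 (choroid over neural retina) and 9.38 (sclera over choroid), and the largest NHP2 piece has no neural retina. With the second NHP1 piece alone, sclera over neural retina was 20.2, choroid over neural retina 6.70 and sclera over choroid 3.02. Against retina beyond 600 µm the NHP1 ratio was 57.6. Classes set spot by spot gave sclera levels of 105 and 265 and an NHP2 ratio of sclera to neural retina of 63.9. Without mitochondrial and the 50 most abundant genes, levels were 155 and 284 in sclera, 23.1 in the NHP1 choroid, and 3.64 and 5.17 in neural retina. Keeping the family in the clustering gave 239 in the NHP2 sclera and no choroid region there. At a resolution of 0.5, NHP2 had 219 in sclera, 51.2 in choroid, 11.7 for choroid over neural retina and 4.28 for sclera over choroid.

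Spots with at least 2 member UMIs were 49.1% and 55.1% of tissue, against 66.7% and 67.4% with 1, and 27.9% of NHP1 spots held one after thinning. Genes at least 4-fold higher in sclera than in neural retina numbered 197 and 353, with a minimum of 50 UMIs 104 and 183, and at 2-fold 648 and 784. Those lower numbered 682 and 636, then 339 and 315, and 1903 and 1692. NHP2 over NHP1 in sclera was 1.81 for the 6 together, 1.09 per sclera marker UMI and 1.19 against the largest NHP1 piece. DCN (0.848 and 0.937) and PRELP (0.908 and 0.931) fell below 1 under both, but beyond counting error only DCN per sclera marker UMI (0.785 to 0.916).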
